A study of Mus musculus with 6 samples.

Results

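The genes described here are 38 genes of the NRF2, glutathione and antioxidant programme, chosen by name. The deposited transcript tables hold 52294 genes with a transcript of at least 200 nt. The list holds the factor NRF2 (Nfe2l2), its sensor Keap1, enzymes of quinone, haem and glutathione chemistry, thioredoxins and peroxiredoxins. Enzymes that supply NADPH, the superoxide dismutases and catalase complete it. The 38 genes were measured in GL261, a mouse glioma cell line grown in culture, in 3 libraries of sodium propionate and 3 of sodium chloride. Per the labels, both salts were given at 1 uM and RNA was taken 4 h later, so that both groups received the same cation. Propionate is a short-chain fatty acid that gut bacteria release, and culture work usually uses far higher doses of it. The unit of the dose could not be checked here. The sample titles number the libraries propionate 1, 4 and 5 and chloride 1, 2 and 3. The labels do not say that they came from separate cultures, and p-values then measure only the spread between these libraries, which may be technical. All 38 genes reached a mean of 1 TPM, a relative transcript abundance corrected for length and depth, which was the filter set for testing, which 15562 genes of the series passed. Levels below are TPM summed over the models of a gene and scaled so that the median gene is level between libraries, and differences are log2(TPM + 1), propionate minus chloride.

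NRF2 is held low in unstressed cells because KEAP1 binds it in the cytoplasm and hands it to the proteasome. Electrophiles and oxidants react with cysteines of KEAP1, and NRF2 then enters the nucleus, pairs with a small MAF protein and binds antioxidant response elements near genes for glutathione synthesis, quinone reduction, thioredoxin reduction and NADPH supply. In gliomas this programme is known for buffering oxidants and for tolerance of drugs and radiation. The question the comparison addresses is whether these transcripts differed between the salts at this time.

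The antioxidant response element has the core TGACNNNGC, and 33 of the 38 genes had a promoter window of 300 bases in the RefSeq table of build GRCm38.p6, from 250 bases before the start to 50 bases after it. Hmox1, Gclc, Gsr, Gsta4 and Prdx6 had no window. The core, searched on both strands, was found in 11 of these 33 genes (33.3%), against 13.991% of 27025 genes in the table. The 11 genes were Nfe2l2, Gclm, Gstm5, Mgst1, Txnrd1, Prdx1, Srxn1, G6pdx, Pgd, Me1 and Sod1. The AP-1 motif TGANTCA, which can overlap the core, was found in 5 of 33 (Gstm5, Gstp1, Prdx1, Srxn1 and Me1), against 8.973% of all genes. The stretches below come from 7 of the 11 genes, which together cover the factor itself and 5 of the enzyme groups, and they let the shared core be compared. Each reads along the gene's own strand, with 10 bases on either side and the core in capitals. A core on the other strand appears as its reverse complement.
Nfe2l2 chr2:75704885-75704913 minus strand: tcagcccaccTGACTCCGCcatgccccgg
Gclm chr3:122245413-122245441 plus strand: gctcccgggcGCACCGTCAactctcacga
Mgst1 chr6:138140461-138140489 plus strand: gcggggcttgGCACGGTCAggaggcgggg
Txnrd1 chr10:82859104-82859132 plus strand: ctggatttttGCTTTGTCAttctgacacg
Prdx1 chr4:116685456-116685484 plus strand: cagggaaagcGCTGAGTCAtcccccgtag
G6pdx chrX:74428919-74428947 minus strand: aggcgggtcaGCTCAGTCAaagcacacgc
Me1 chr9:86695902-86695930 minus strand: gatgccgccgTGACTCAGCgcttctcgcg
The core lay 240 bases upstream of the RefSeq start in Nfe2l2, 134 in Gclm, 56 in Mgst1, 92 in Txnrd1, 133 in Prdx1, 57 in G6pdx and 6 in Me1. The Mgst1, G6pdx and Me1 stretches also lie in first exons of annotated models of the same gene that start further upstream. The Nfe2l2 stretch lies under an exon of E030042O20Rik on the opposite strand, and the other 3 lie under no annotated exon. In Prdx1 and Me1 the core also holds the AP-1 motif. A match of these letters is a description and does not show that a factor binds there.

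Counted bases came to 9.33, 11.3 and 11.1 Gb in propionate 1, 4 and 5, against 9.41, 9.47 and 9.15 Gb in chloride 1, 2 and 3. Propionate 1 and chloride 3 stood apart, with coverage on 71192 and 71452 transcript models, where the other 4 libraries had 81178 to 82370. Of 9 markers of glioma and neural stem cells, 7 had a mean of at least 1 TPM (Nes, Vim, Sox2, Olig2, Cd44, S100b and Pdgfra), and Gfap and Ncam1 did not. Markers of microglia and macrophages summed to 4.76 to 6.14 TPM with propionate and 4.61 to 6.26 TPM with chloride. Of these 7 markers, only Csf1r and Cd68 had a mean of at least 1 TPM, and Itgam and P2ry12 were at 0. Endothelial and lymphoid markers summed to under 1 TPM in every library. Markers of fibroblasts and pericytes summed to 76.4 to 100.4 TPM with propionate and 87.0 to 99.7 TPM with chloride. Of these 5 markers, Col1a1 and Pdgfrb had a mean of at least 1 TPM, and Dcn, Lum and Rgs5 did not. Neuron markers summed to 34.6 to 41.3 TPM with propionate and 37.8 to 39.6 TPM with chloride. Of these 4 markers, only Map2 had a mean of at least 1 TPM, and Rbfox3 and Snap25 were at 0. The part of such cells in the values below was not tested.

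No antioxidant gene passed the threshold of 0.05 on the adjusted p of limma (Benjamini-Hochberg over all 15562 genes), and the lowest adjusted p among the 38 was 0.917. One gene of the series passed, Gm17201, which is no antioxidant gene, so that the share called among all genes was 0.00643%. At an unadjusted limma p under 0.05 there were 2 of the 38, G6pdx and Nqo1, both higher with propionate, against a background of 5.08% of all genes. The voom test on estimated reads also called 0 of the 38, with 1 at an unadjusted p under 0.05. All 3 propionate libraries lay above all 3 chloride libraries for 5 of the 38 (Nqo1, Blvrb, Txnrd1, G6pdx and Cat), against a background of 5.24%, and all 3 lay below for 0, against 6.49%. Genes are not independent of each other, and these counts carry no test.

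By sign alone, 29 of the 38 genes were higher and 9 lower with propionate (76.3% higher, against 51.8% of all genes tested). The 38 genes had higher levels than most, with a median of 53.4 TPM against 12.5 TPM over all genes tested. The share of all genes that were higher was larger at a higher cut on level. At a mean of at least 5 TPM, 28 of 37 listed genes were higher and 9 lower, against 57.1% higher of all genes. That cut lies far below the median level of the 38, so 57.1% is not the share at their level. The part of level in the signs was not tested. With TPM as deposited, without scaling between libraries, 14 of the 38 were higher and 24 lower, where 23.9% of all genes were higher. The median difference of the 38 genes was 0.07 on the log2(TPM + 1) scale against 0.006 for all genes, and with TPM as deposited it was -0.02 against -0.08. The sign of the median thus followed the scaling. The median of the 38 genes stayed above that of all genes on both scales. Scaling shifts nearly all genes alike, so the second scale is no separate check of that order. Single libraries moved the median as well: it was 0.04 without propionate 4 and 0.05 without chloride 3. It was 0.079 to 0.095 when any other single library was left out. Against the mean of the 6 libraries, the median gene stood at -0.03, 0.08 and 0.03 in propionate 1, 4 and 5, and at -0.005, 0.0004 and -0.09 in chloride 1, 2 and 3. Propionate 4 was the highest library and chloride 3 the lowest, and the groups overlapped. In a bulk culture, more transcript per cell and more cells holding the transcript cannot be told apart.

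**Figure D1:**
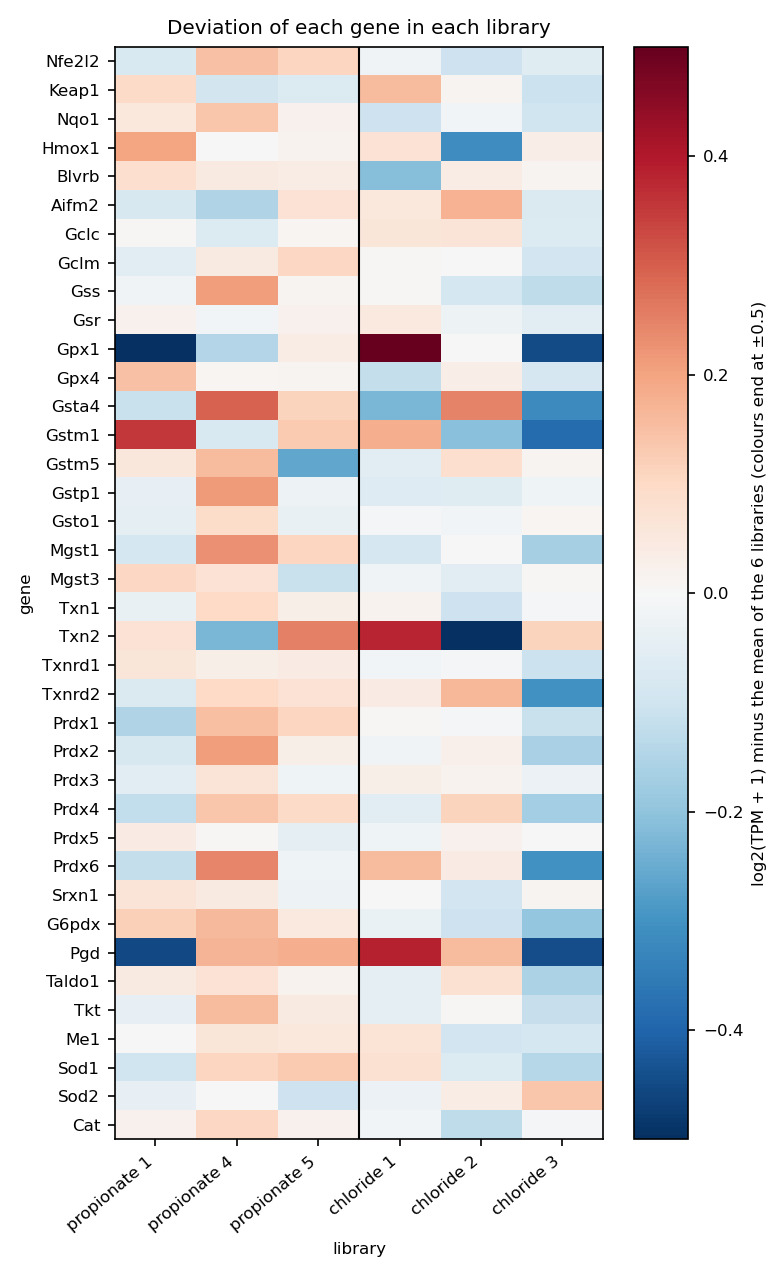
Heat map of the 38 genes (vertical axis, in the order of their roles) in the 6 libraries (horizontal axis, propionate left of the line). Colour gives log2(TPM + 1) minus the gene's mean over the 6 libraries, and ends at ±0.5. Propionate 4 is mostly red and chloride 3 mostly blue, with Gpx1, Txn2 and Pgd showing the widest swings between libraries of the same salt.

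The intervals below are on scaled log2(TPM + 1). Their width comes from the spread between these libraries, which may be technical, so they bound no effect of the salt itself. The 95% interval of limma lay within a 1.5-fold change either way for 33 of the 38 genes (86.8%, against 77.4% of all genes) and within a 2-fold change for 37 (97.4%, against 93.2%). The gene outside the 2-fold bound was Gpx1, described below, and the other 4 outside the 1.5-fold bound were Gsta4, Gstm1, Txn2 and Pgd. Low genes change more than this scale shows: Gsta4 differed by 0.20, and by 0.30 with a pseudocount of 0.1. The coefficient of variation over the 6 libraries had a median of 7.69% in the 38 genes and 10.6% in all genes.

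**Figure D2:**
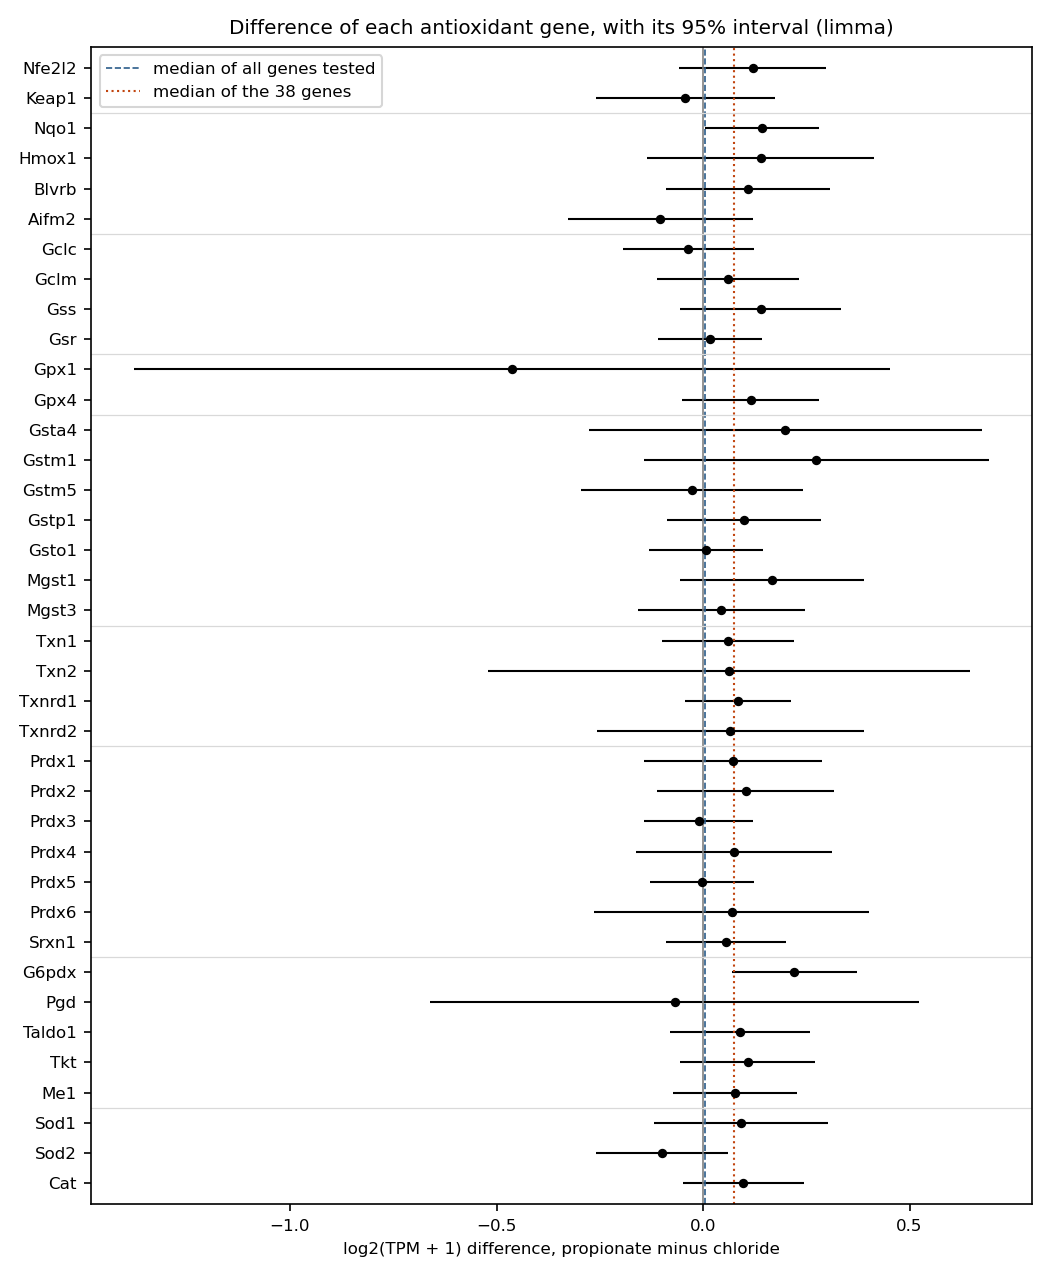
Difference of each of the 38 genes (vertical axis, in the order of their roles) in log2(TPM + 1), propionate minus chloride (horizontal axis), with points for the limma estimate and lines for its 95% interval. The dashed line is the median of all genes tested (0.006) and the dotted line the median of the 38 genes (0.07); with TPM as deposited these medians are -0.08 and -0.02.

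As a set, the 38 genes were abundantly transcribed in GL261 cells with either salt. They were chosen with earlier results of these data known, so their levels do not describe the whole programme. All 38 passed the filter of 1 TPM. Of 84 further pathway genes, 67 passed it, and Gsta2, Gstm3 and Ggt5 were listed at 0. The median gene of the 38 had 53.4 TPM, against 12.5 TPM over all genes tested, and 14 of the 38 (36.8%) lay among the 1557 most abundant genes. By the sum of a gene's own models, Txn1, the cytosolic thioredoxin that reduces protein disulfides, was the most abundant, with 722, 794 and 756 TPM in propionate 1, 4 and 5 and 751, 690 and 738 TPM in chloride 1, 2 and 3. Sod1 (456.9 TPM over the 6 libraries), Gpx4 (405.9 TPM), Prdx1 (350.8 TPM), Taldo1 (339.6 TPM), Prdx2 (337.6 TPM) and Txnrd1 (264.2 TPM) followed, and Prdx1, Taldo1 and Prdx2 did not differ from each other beyond their spread. This order rests on model sums: by coverage over exons, described below, Gpx1 ranked 3 of the 38, after Txn1 and Sod1. Reads of the neighbouring gene Rhoa may enter that level of Gpx1. At the low end stood Gsta4 (1.85 TPM), Gstm1 (5.71 TPM), Txnrd2 (6.12 TPM) and Mgst3 (8.97 TPM). The 38 genes together summed to 4480, 4876 and 4714 TPM in propionate 1, 4 and 5, against 4636, 4499 and 4264 TPM in chloride 1, 2 and 3, and the groups overlapped.

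**Figure D3:**
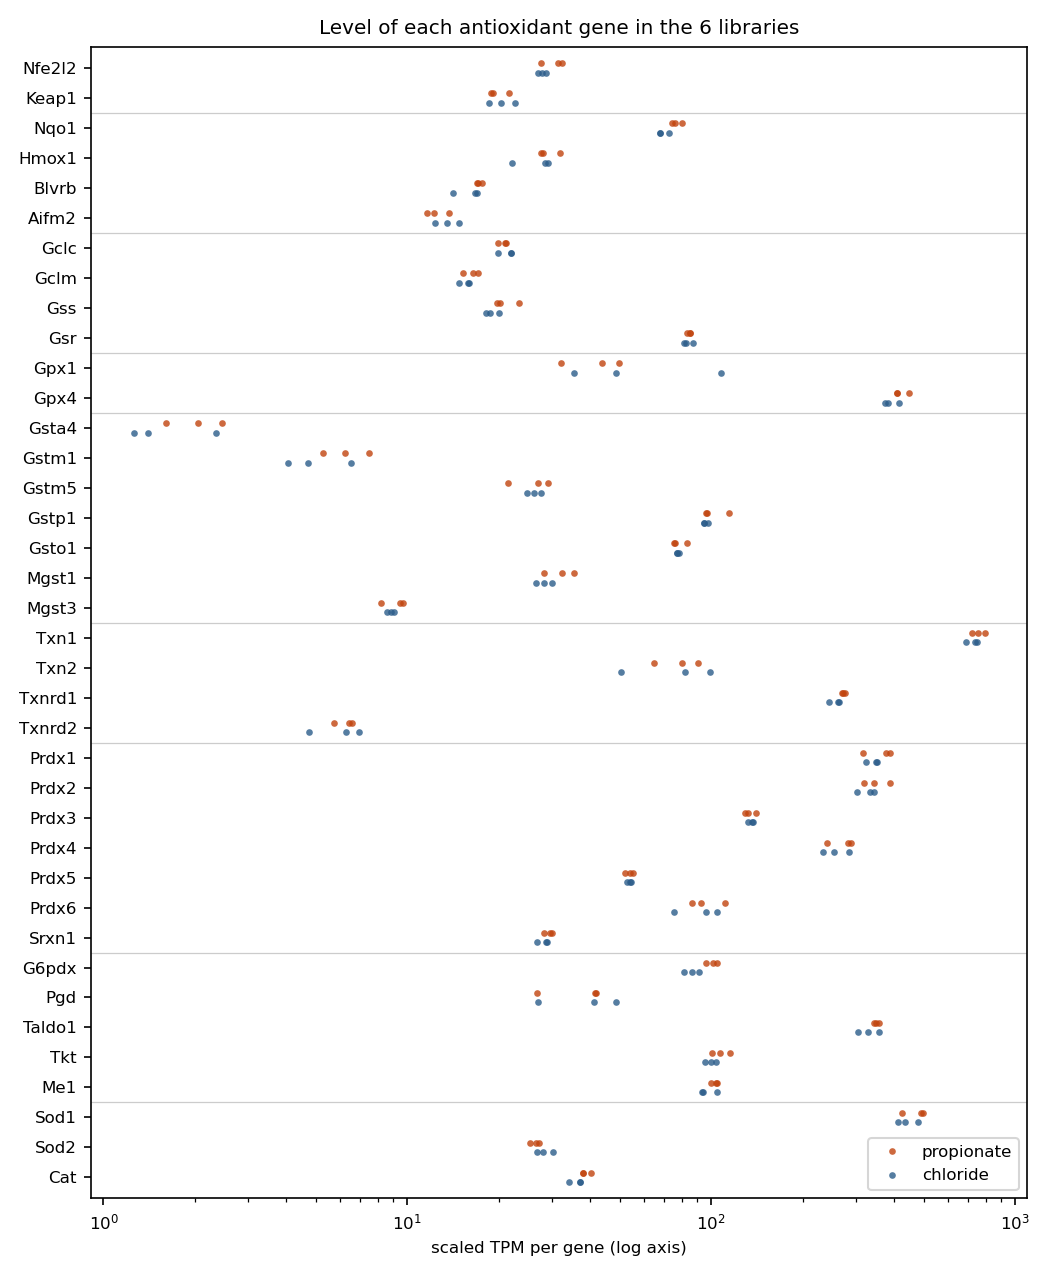
Scaled TPM on a log axis (horizontal) of each of the 38 genes (vertical axis, lines between the roles), with 1 point for each of the 3 propionate libraries (upper points) and the 3 chloride libraries (lower points). Levels run from under 3 TPM for Gsta4 to 794 TPM for Txn1, and the points of the salts lie close together for most genes, with Gpx1, Txn2 and Pgd spread widely within a salt.

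Nfe2l2, which encodes NRF2 (chr2:75675513-75704641, minus strand, build mm10), had 27.5, 32.2 and 31.4 TPM in propionate 1, 4 and 5 and 28.6, 27.0 and 27.8 TPM in chloride 1, 2 and 3. The difference was 0.12 ± 0.08 (log2, SE) with a limma adjusted p of 0.917 and a 95% interval of -0.06 to 0.30. Propionate 4 and 5 lay above every chloride library and propionate 1 lay among them. Keap1, the adaptor that holds NRF2 for degradation, averaged 19.8 ± 1.49 TPM with propionate and 20.5 ± 1.98 TPM with chloride (SD, n = 3 each), and its groups overlapped. NRF2 activity is set mainly by protein stability, which these RNA values do not measure.

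Nqo1, a quinone reductase and one of the best known NRF2 targets (chr8:107388225-107403206, minus strand), had 75.8, 80.4 and 74.2 TPM in propionate 1, 4 and 5 and 68.0, 72.4 and 68.1 TPM in chloride 1, 2 and 3. The difference was 0.14 ± 0.06 (log2, SE; 95% interval 0.004 to 0.28), with a limma unadjusted p of 0.045 and an adjusted p of 0.917. The difference was 0.05 with TPM as deposited. The scaled groups did not overlap, but the gap between propionate 5 and chloride 2 was narrower than the spread within either group. Hmox1, haem oxygenase, which degrades haem and is induced by many stresses, had 31.9, 27.6 and 27.98 TPM with propionate and 29.1, 22.1 and 28.3 TPM with chloride. Chloride 2 was its lowest library, and the other 2 chloride libraries lay among the propionate values. Blvrb, a flavin and biliverdin reductase, averaged 17.2 ± 0.31 TPM with propionate and 15.9 ± 1.58 TPM with chloride (SD, n = 3 each), where the lowest propionate library and the highest chloride library both rounded to 17.0 TPM. Aifm2, the ferroptosis suppressor that reduces coenzyme Q, averaged 12.5 ± 1.06 TPM with propionate and 13.5 ± 1.24 TPM with chloride, and it was the member of this group with a lower mean; its sign turned with voom and with coverage counted over exons.

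Glutathione is made in 2 steps. Gclc, the catalytic subunit of the rate-limiting glutamate-cysteine ligase, had 21.0, 19.9 and 21.1 TPM with propionate and 21.9, 21.9 and 19.9 TPM with chloride. Its modifier subunit Gclm had 15.2, 16.4 and 17.1 TPM with propionate and 15.9, 15.8 and 14.8 TPM with chloride, and its difference of 0.06 turned to -0.03 with TPM as deposited. Both subunits overlapped between the salts, and neither interval of limma left the 1.5-fold bound. Gss, the synthetase that adds glycine, averaged 21.0 ± 1.91 TPM with propionate and 19.0 ± 0.96 TPM with chloride (SD, n = 3 each). Gsr, which returns oxidised glutathione to its reduced form with NADPH, was the steadiest of the group, at 83.2 to 85.5 TPM with propionate and 81.1 to 87.2 TPM with chloride. Gsr also made up 59.7% of the summed TPM of these 4 genes.

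Gpx4, the peroxidase that clears lipid hydroperoxides and so restrains ferroptosis, had 449.1, 407.6 and 409.5 TPM in propionate 1, 4 and 5 and 372.8, 414.7 and 381.7 TPM in chloride 1, 2 and 3. The difference was 0.11 ± 0.07 (log2, SE), the limma adjusted p was 0.917, and chloride 2 lay among the propionate libraries. Of the stretches of 31 bases in its coding transcripts, 55.5% also occur in other genes, mostly in the pseudogene Gpx4-ps2, which was listed at 171, 188 and 181 TPM with propionate and 160, 187 and 147 TPM with chloride. How reads were divided between Gpx4 and this copy was not tested.

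Gpx1, the cytosolic glutathione peroxidase (chr9:108338903-108340343, plus strand), showed the largest difference of the 38 genes and the widest error. Its summed models had 32.1, 43.7 and 49.9 TPM in propionate 1, 4 and 5 and 108, 48.6 and 35.4 TPM in chloride 1, 2 and 3. The difference was -0.46 ± 0.39 (log2, SE; 95% interval -1.38 to 0.45) with a limma adjusted p of 0.929, and it hung on single libraries: it was -0.01 without chloride 1, -0.29 without propionate 1 and -0.80 without chloride 3. The coding models of Gpx1 start after a gap of 151 bases downstream of Rhoa, a GTPase gene on the same strand, and an assembled model of 7 exons and 4385 nt runs from the first base of Rhoa to the last base of Gpx1 (chr9:108306129-108340343). That joined model, counted under Rhoa, had 124.2, 191.7 and 174.8 TPM with propionate and 87.9, 161.8 and 165.8 TPM with chloride. It was thus lowest in chloride 1, where the Gpx1 models were highest. That rests on 1 library: in propionate 1, where the Gpx1 models were lowest, the joined model was not high either, at 124.2 TPM. Whether reads moved between these models was not tested.

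When coverage was instead summed over every model that covers the exons of the Gpx1 coding models, Gpx1 stood at 322, 342 and 337 on the TPM scale in propionate 1, 4 and 5 and at 304, 321 and 300 in chloride 1, 2 and 3. The coefficient of variation over the 6 libraries was 5.28% on this measure and 52.7% for the sum of its own models. The difference was 0.11 ± 0.06 (log2, SE; 95% interval -0.02 to 0.25), with the opposite sign to that of the model sum and a limma adjusted p of 0.916. All 3 propionate libraries lay above the chloride libraries by a small margin. This measure was chosen after the joined model had been seen. The joined model has 7 exons, where the main coding models of Rhoa and Gpx1 have 6 and 2, so an exon of it may hold parts of both. Coverage is given per exon, so reads of Rhoa may enter this level of Gpx1. Their part was not tested. With Rhoa and Gpx1 summed as 1 locus the difference was 0.004.

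Pgd, which makes NADPH in the step after G6pdx (chr4:149149991-149166771, minus strand), also had a model sum that varied within each salt. Its assembled models are counted within that sum, unlike the joined model of Rhoa and Gpx1. Its models summed to 26.7, 41.6 and 41.9 TPM in propionate 1, 4 and 5 and to 48.5, 41.2 and 26.9 TPM in chloride 1, 2 and 3. The low libraries were propionate 1 and chloride 3, the libraries with fewer covered models. In both, the coding reference model ENSMUST00000084124 (2282 nt) was listed at 0, while an assembled model of 4248 nt, MSTRG.16029.1, had 25.8 TPM in propionate 1 and 23.8 TPM in chloride 3. In the other 4 libraries that assembled model had 2.16 and 3.59 TPM with propionate and 0.51 and 0.23 TPM with chloride. Over the exons, Pgd had 45.1, 41.8 and 43.1 with propionate and 47.1, 39.6 and 41.8 with chloride on the TPM scale, a difference of 0.02 with a coefficient of variation of 6.20% in place of 23.7%.

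**Figure D4:**
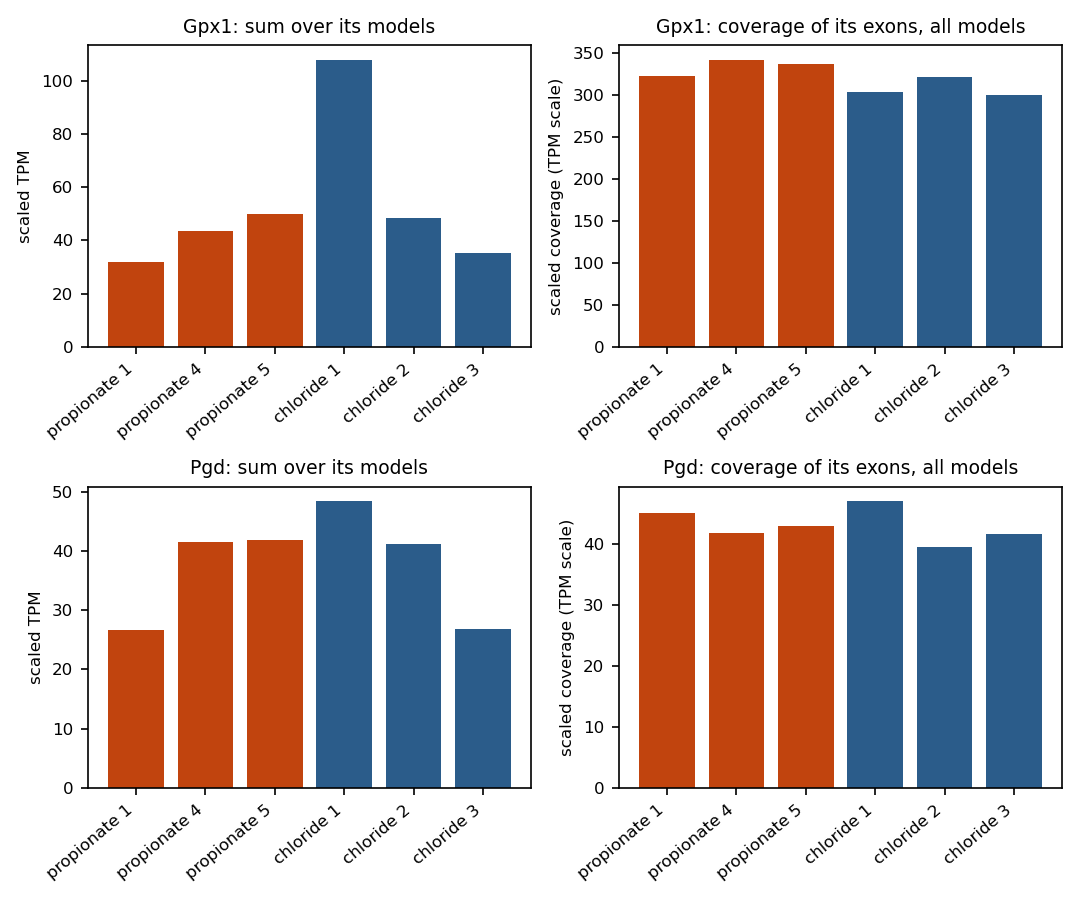
Bars for Gpx1 (top) and Pgd (bottom) in each library, propionate left of chloride, by 2 measures: the sum of the gene's own models in scaled TPM (left) and the coverage of its coding-model exons over all models, on the TPM scale (right). On the left Gpx1 ranges from 32.1 to 108 and Pgd from 26.7 to 48.5, and on the right both genes are close to level, with a highest over lowest library of 1.14 for Gpx1 and 1.19 for Pgd.

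Glutathione transferases join glutathione to electrophiles. Gstp1, the most abundant of the 7, had 96.1, 114.8 and 97.0 TPM with propionate and 94.4, 94.8 and 97.3 TPM with chloride, so that propionate 4 stood above the other 5 libraries. It shares 57.8% of its stretches of 31 bases with its neighbour Gstp2, which averaged 41.4 ± 4.66 TPM with propionate and 35.7 ± 4.35 TPM with chloride, and the split between the copies is uncertain. Gsto1, the omega class enzyme, averaged 78.1 ± 4.24 TPM with propionate and 77.6 ± 0.73 TPM with chloride. Mgst1, a membrane-bound transferase and peroxidase, had 28.1, 35.2 and 32.3 TPM with propionate and 28.2, 29.9 and 26.6 TPM with chloride. Gstm1 had the largest positive difference of the 38 genes, 0.27 ± 0.18 (log2, SE; 95% interval -0.14 to 0.69, limma adjusted p 0.917), on low levels of 7.46, 5.27 and 6.25 TPM with propionate and 6.51, 4.73 and 4.06 TPM with chloride that overlapped. Gsta4, which acts on the lipid peroxidation product 4-hydroxynonenal, had 1.61 to 2.45 TPM with propionate and 1.26 to 2.34 TPM with chloride, and Gstm5 and Mgst3 also overlapped between the salts. Of the 7, 6 had a higher mean with propionate, of which Gsto1 and Mgst3 turned lower with TPM as deposited.

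The thioredoxin system carries electrons from NADPH to peroxiredoxins and other proteins. Txnrd1, the cytosolic selenoprotein reductase, had 275.1, 269.3 and 271.7 TPM in propionate 1, 4 and 5 and 261.6, 262.9 and 245.0 TPM in chloride 1, 2 and 3. Its groups did not overlap, but the difference was 0.09 ± 0.05 (log2, SE) with a limma adjusted p of 0.917, and it turned to -0.01 with TPM as deposited. Txn1 differed by 0.06 and turned to -0.04. Txn2, the mitochondrial thioredoxin, was scattered: 79.9, 64.6 and 90.7 TPM with propionate and 99.2, 50.4 and 82.0 TPM with chloride, and its exon coverage was scattered too, at 15.9 to 30.2 on the TPM scale over the 6 libraries. Txnrd2, the mitochondrial reductase, averaged 6.25 ± 0.46 TPM with propionate and 5.98 ± 1.13 TPM with chloride.

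Peroxiredoxins remove hydrogen peroxide, and sulfiredoxin repairs them when they are overoxidised. The 6 peroxiredoxins and Srxn1 together had 1175, 1401 and 1307 TPM in propionate 1, 4 and 5, against 1260, 1289 and 1148 TPM in chloride 1, 2 and 3. Prdx1, which holds both motifs at 1 site, had 315.3, 388.1 and 377.4 TPM with propionate and 351.7, 348.6 and 323.6 TPM with chloride, so that propionate libraries were both the lowest and the highest. In Prdx2, also cytosolic, and in Prdx4, the form of the endoplasmic reticulum, propionate 4 was the highest library too, but chloride 3 was the lowest. The mitochondrial Prdx3 averaged 134.0 ± 5.86 TPM with propionate and 134.9 ± 2.80 TPM with chloride (SD, n = 3 each), and Prdx5 averaged 53.8 ± 1.76 TPM with propionate and 53.8 ± 0.79 TPM with chloride. Those were the closest pairs of means among the 7 genes. Srxn1, a well known NRF2 target, had 29.9, 29.5 and 28.1 TPM with propionate and 28.5, 26.7 and 28.9 TPM with chloride. All 7 genes overlapped between the salts; 5 had a higher mean with propionate, of which Prdx1, Prdx4, Prdx6 and Srxn1 turned lower with TPM as deposited.

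G6pdx, glucose-6-phosphate dehydrogenase, which opens the pentose phosphate pathway and makes NADPH (chrX:74409483-74429194, minus strand), gave the smallest p of the 38 genes. It had 101.2, 104.3 and 96.3 TPM in propionate 1, 4 and 5 and 91.0, 86.5 and 81.2 TPM in chloride 1, 2 and 3. The difference was 0.22 ± 0.06 (log2, SE; 95% interval 0.07 to 0.37), with a limma unadjusted p of 0.011 and an adjusted p of 0.917, and with TPM as deposited it was 0.12. All 3 propionate libraries lay above all 3 chloride libraries on the sum of its models. Its main coding model, ENSMUST00000004327, overlapped, with 91.1, 84.7 and 69.8 TPM with propionate and 81.4, 67.5 and 68.1 TPM with chloride. A shorter coding model, ENSMUST00000143521, had 0.28, 8.16 and 14.9 TPM with propionate and 0.38, 0.38 and 0 TPM with chloride. With voom the difference of G6pdx was 0.09. Over its exons, counted through every model, the values were 101.9, 101.4 and 92.9 with propionate and 93.7, 93.1 and 84.7 with chloride on the TPM scale, and the groups overlapped. On that measure the difference was 0.12 ± 0.07 (log2, SE), with a limma unadjusted p of 0.106.

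Taldo1 and Tkt shuttle sugars in the non-oxidative branch. Taldo1 averaged 349.8 ± 6.37 TPM with propionate and 329.5 ± 27.1 TPM with chloride, and Tkt averaged 107.6 ± 7.53 TPM with propionate and 99.6 ± 4.23 TPM with chloride (SD, n = 3 each). Me1, the cytosolic malic enzyme, which also makes NADPH, averaged 102.5 ± 2.19 TPM with propionate and 97.3 ± 6.45 TPM with chloride, and chloride 1, at 104.8 TPM, was the highest library. All 3 genes overlapped between the salts, and Taldo1 and Me1 turned lower with TPM as deposited.

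Sod1, the cytosolic copper-zinc superoxide dismutase, had 425.6, 490.7 and 498.4 TPM in propionate 1, 4 and 5 and 479.9, 434.4 and 412.5 TPM in chloride 1, 2 and 3, with a difference of 0.09 that turned to -0.005 with TPM as deposited. Sod2, the mitochondrial manganese enzyme, had 26.5, 27.2 and 25.3 TPM with propionate and 26.7, 28.04 and 30.1 TPM with chloride. Its difference of -0.10 turned to 0.005 over exons, 0.003 with voom and 0.01 with reference transcripts alone. Cat, catalase, had 37.9, 40.2 and 37.8 TPM with propionate and 36.9, 34.1 and 37.1 TPM with chloride. Its groups did not overlap, by a margin narrower than the spread within either group, and the difference was 0.10 ± 0.06 (log2, SE) with a limma adjusted p of 0.917, or 0.003 with TPM as deposited.

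The 11 genes with the antioxidant response core in their promoter window had a median difference of 0.08, with 9 higher and 2 lower by sign, but with TPM as deposited they had a median of -0.02, with 3 higher and 8 lower. The 22 matched genes without the core had a median of 0.07, with 16 higher and 6 lower, and with TPM as deposited -0.02, with 9 higher and 13 lower. Of all genes tested, 51.8% were higher after scaling and 23.9% with TPM as deposited. The medians of the genes with and without the core were thus close after scaling. Scaling shifts nearly all genes alike, so the values as deposited are no separate check of this. Among the 7 genes whose sequence is shown above, G6pdx differed by 0.22, Mgst1 by 0.17, Nfe2l2 by 0.12, Txnrd1 by 0.09, Me1 by 0.08, Prdx1 by 0.07 and Gclm by 0.06, where Txnrd1, Me1, Prdx1 and Gclm turned lower with TPM as deposited. Of the other 4 with the core, Sod1 differed by 0.09 and Srxn1 by 0.06, both of which turned lower with TPM as deposited, and Pgd and Gstm5 had -0.07 and -0.03.

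Single transcript models were tested too, since 0.0364% of 35755 models in the series passed an adjusted limma p of 0.05 and 4.58% had an unadjusted p under 0.05. The 38 genes had 96 tested models, of which 0 passed (lowest adjusted p 0.862) and 5 had an unadjusted p under 0.05. An assembled model of Sod2 (MSTRG.9027.3, 593 nt) was listed at 0 in all 3 propionate libraries and at 1.52, 1.51 and 4.03 TPM in chloride 1, 2 and 3. A processed transcript of Srxn1 (ENSMUST00000137751) had 1.63, 2.77 and 2.34 TPM with propionate and 1.02, 0.46 and 0.89 TPM with chloride, and a retained-intron model of Gpx4 (ENSMUST00000154095) had 0.70, 0.76 and 0.94 TPM with propionate and 2.02, 1.61 and 1.92 TPM with chloride. All 3 stayed under 5 TPM in every library. The other 2 were assembled models of Txnrd1.

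MSTRG.2349.2, a Txnrd1 model of 13 exons, had 44.3, 104.8 and 50.03 TPM in propionate 1, 4 and 5 and 32.3, 0.15 and 0 TPM in chloride 1, 2 and 3. MSTRG.2349.5, with 17 exons, had 0.68, 7.89 and 12.1 TPM with propionate and 0.43, 0.33 and 0.50 TPM with chloride. Both had an adjusted limma p of 0.862. The reference model ENSMUST00000020484 had 4.31, 90.3 and 122.8 TPM with propionate and 132.7, 125.9 and 10.9 TPM with chloride, so that the split between models swung within each salt while the sum stayed between 245.0 and 275.1 TPM. Models listed at 0 in at least 1 library numbered 20 of the 96, and such a 0 can be a failed estimate.

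**Figure D5:**
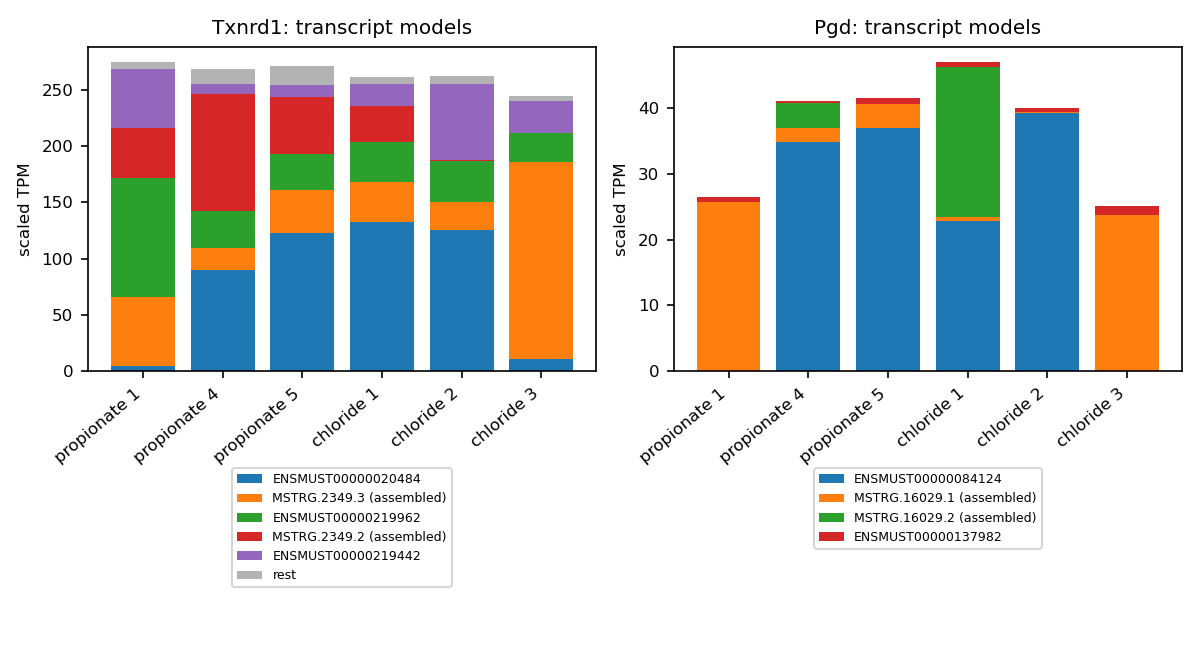
Stacked bars of the models of Txnrd1 (left) and Pgd (right), without the least abundant ones, in scaled TPM in each library. Propionate stands left of chloride, colours show single models, and some low models in the bars were not tested. The Txnrd1 total stays near level while its parts trade places, and in Pgd the assembled model MSTRG.16029.1 (orange) replaces the reference model in propionate 1 and chloride 3, where the total is lowest.

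Further genes of the pathway did not pass either. Of 84 further genes, 67 were tested and 0 passed the adjusted limma p of 0.05, and 3 (4.48%) had an unadjusted p under 0.05, against 5.08% of all genes. By sign 47 were higher and 20 lower with a median of 0.06, where 51.8% of all genes were higher (57.1% at a mean of at least 5 TPM). With TPM as deposited, 19 were higher and 48 lower with a median of -0.04, where 23.9% of all genes were higher. Those 3, named after their values were seen, were Msrb1, a selenoprotein that reduces methionine sulfoxide, at 32.0 ± 1.65 TPM with propionate and 26.7 ± 2.43 TPM with chloride, Gstt3, a transferase, at 8.30 ± 0.87 TPM with propionate and 6.64 ± 0.76 TPM with chloride, and Chac1, which degrades glutathione, at 7.45 ± 0.70 TPM with propionate and 9.02 ± 0.46 TPM with chloride (SD, n = 3 each). Slc7a11, the cystine importer that feeds glutathione synthesis, had 3.76, 4.21 and 4.53 TPM with propionate and 4.66, 5.03 and 4.69 TPM with chloride, all propionate libraries below (limma adjusted p 0.917). Sqstm1, the adaptor p62 that sequesters KEAP1, averaged 219.6 ± 3.52 TPM with propionate and 208.2 ± 3.68 TPM with chloride, all propionate libraries above after scaling (limma adjusted p 0.917), but its difference of 0.08 turned to -0.02 with TPM as deposited. Bach1, the repressor that competes with NRF2, averaged 34.5 ± 1.05 TPM with propionate and 32.5 ± 1.42 TPM with chloride, and Nfe2l1, the related factor NRF1, averaged 42.1 ± 1.75 TPM with propionate and 44.8 ± 1.60 TPM with chloride. Txnip, the thioredoxin inhibitor, averaged 33.3 ± 2.08 TPM with propionate and 34.3 ± 2.40 TPM with chloride, and Park7, a redox-sensitive chaperone, averaged 119.9 ± 3.15 TPM with propionate and 114.4 ± 4.43 TPM with chloride. Glrx, a glutaredoxin, was low, at 1.56 ± 0.34 TPM with propionate and 1.36 ± 0.17 TPM with chloride. Bach1, Nfe2l1, Txnip, Park7 and Glrx all overlapped between the salts. The ferritin chains Ftl1, at 1445 ± 45.9 TPM with propionate and 1354 ± 92.8 TPM with chloride, and Fth1, at 167.2 ± 36.2 TPM with propionate and 152.7 ± 14.2 TPM with chloride, also overlapped between the salts.

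Sequence shared with other genes limits some of these values. Over 20% of the stretches of 31 bases in 8 of the 38 genes (Gpx4, Gstp1, Gstm1, Me1, Sod1, Prdx2, Prdx5 and Taldo1) also occur in other genes, and 16 of the 38 share none. Exons of a gene on the opposite strand overlie coding exons of 9 of the 38, such as Trmt112 over Prdx5. The library kit marks strand per the labels, but no source used here gives the strand setting of the counting, so reads of such partners may not be told apart.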

How the data were processed

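Per the labels' protocols, the libraries were made from total RNA with a TruSeq stranded kit. Tools named in the submitters' processing notes, without their order, are bcl2fastq, fastp, HISAT2 and StringTie, and the build is mm10. The authors, per the file headers, ran StringTie 2.1.1 on each library against 1 merged set of 157296 transcript models, 14805 of them assembled from reads, and deposited coverage, FPKM and TPM per model inside a text column, with no counts. The depth therefore comes from coverage times model length.

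TPM was summed per gene, with assembled models joined to the reference gene whose exons they overlap most. Genes with no transcript of at least 200 nt were dropped. Each library was scaled by the median ratio to the 6-library geometric mean, with factors of 0.971, 0.966 and 0.967 for propionate 1, 4 and 5 and 1.09, 0.990 and 1.03 for chloride 1, 2 and 3. Genes and models with a mean of at least 1 TPM entered limma 3.58.1 (two-sided, variance trend, R 4.3.3) as log2(TPM + 1), adjusted by Benjamini-Hochberg over all of them, at a threshold of 0.05. Low genes change more than this scale shows. The limma fit was tested on simulated data. The other steps were run in Python 3.11.15. Gene names and exons came from the deposited files. Gene identifiers, transcript classes and transcript sequences came from GENCODE M21 of the same build, and promoters from RefSeq.

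All 38 genes were named, with 9 further pathway genes and any at an unadjusted p under 0.05. Of models, the 5 with the smallest p were named, since 0 passed. The 38 genes and the lists were chosen with earlier results of these data known. Alternatives were no scaling, a pseudocount of 0.1, a mean of at least 5 TPM, no filter, voom on reads estimated from coverage and a read length of 101, reference transcripts alone, locus sums, a term for chloride 3 with propionate 1, leaving out libraries, and exon coverage, which was added after the data were seen.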

Additional observations from a re-analysis of the deposited data

How the results depend on the processing

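Of 16 alternative settings, 15 were run for the 38 genes, except that Gsta4 was not tested at a mean of at least 5 TPM, and locus sums were run for the 4 genes that share a locus (Gclm, Gpx1, Gstp1 and Tkt). None of the genes passed the limma threshold in a setting that was run for it. The lowest adjusted p was 0.581, with a term for the pair chloride 3 and propionate 1. In every setting run for them, 15 genes kept their sign (Blvrb, Cat, G6pdx, Gclc, Gpx4, Gss, Gsta4, Gstm1, Gstp1, Hmox1, Mgst1, Nfe2l2, Nqo1, Prdx2 and Tkt) and 23 did not. With TPM as deposited, 24 genes were lower and the median was -0.021. The log2 differences then turned to -0.033 for Txn2, -0.012 for Txnrd1, -0.0054 for Sod1, -0.089 for Gsto1, -0.022 for Prdx4, -0.0080 for Taldo1, -0.043 for Mgst3, -0.027 for Prdx6, -0.031 for Gclm, -0.037 for Txn1, -0.024 for Prdx1, -0.078 for Gsr, -0.020 for Me1, -0.038 for Srxn1 and -0.017 for Txnrd2. This follows from the scaling factors, which differ between the salts. With coverage over exons, 5 genes were lower, and Sod2 (0.0052), Aifm2 (0.0021), Pgd (0.019) and Gpx1 (0.11) turned. With voom, Sod2 (0.0031), Aifm2 (0.0014) and Pgd (0.00015) turned. With reference transcripts alone, Sod2 (0.011) and Gsto1 (-0.0018) turned. Without chloride 3 and propionate 1, Gsr (-0.014) and Txnrd2 (-0.019) turned. Summed over the locus with Rhoa, Gpx1 turned to 0.0036. Apart from the scaling, the cause was not tested.

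Leaving out single libraries gave ranges that cross 0 for Keap1 (-0.11 to 0.025), Prdx3 (-0.044 to 0.015), Pgd (-0.31 to 0.14), Gstm5 (-0.11 to 0.097), Txn2 (-0.21 to 0.27), Prdx5 (-0.023 to 0.025), Prdx6 (-0.067 to 0.17), Gsr (-0.0058 to 0.048), Txnrd2 (-0.071 to 0.17) and Gsto1 (-0.035 to 0.032).

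Genes of the series past the threshold numbered 2 at a mean of at least 5 TPM, 0 with no filter on low values (1425 at an unadjusted limma p under 0.05), 0 with voom (840 at an unadjusted p under 0.05) and 7 without chloride 3 and propionate 1, against 1 in the test as reported. They numbered 1 to 3 when single libraries were left out, with 3 without propionate 1. Models past it numbered 13 as reported, 5 at a mean of at least 5 TPM, 1 with no filter, 1 with voom, 0 without chloride 3 and propionate 1, and 1 with the pair term. They numbered 2 to 31 when single libraries were left out. None of these settings called an antioxidant gene.

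No paired analysis was possible because the salts share only replicate number 1. Depth is known only as counted bases, and its effect on single genes was not tested.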
